A study of Mus musculus with 12 samples.

Results

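The 9 genes Gpam, Agpat2, Lpin1, Lpin2, Dgat1, Dgat2, Chka, Pcyt1a and Pcyt2 encode enzymes that build triglycerides and phospholipids. They were chosen by name, with earlier results of these data known, as the lines with these symbols among the 38926 gene symbols counted in each liver. All 9 were present and all 9 passed the filter on low counts that left 14488 genes to test. Liver RNA of 12 mice was sequenced, in 4 groups of 3 animals each. Wild-type mice and mice without Rev-erbα (gene symbol Nr1d1, labelled Rev KO and written Rev-erbα-/- here), all 12 weeks old and on a 129Ola/C57BL6 background, were sampled at ZT8 and at ZT20. The mice were males from heterozygous breeding, the knockout is carried by every cell of the body, and the animals were kept in 12 h of light and 12 h of dark with free access to food and water. Zeitgeber time (ZT) counts hours from lights on, so ZT8 falls in the light phase, when mice rest, and ZT20 in the dark phase, when they feed. The study used these groups to find transcripts altered in the knockout at ZT8 but not at ZT20.

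Triglycerides and the main membrane phospholipids share their first steps. Glycerol-3-phosphate is acylated by mitochondrial glycerol-3-phosphate acyltransferase (Gpam) and then by 1-acylglycerol-3-phosphate acyltransferase (Agpat2) to phosphatidate, which lipins (Lpin1, Lpin2) dephosphorylate to diacylglycerol. Diacylglycerol acyltransferases (Dgat1, Dgat2) turn diacylglycerol into triglyceride, which the liver stores or exports in very-low-density lipoprotein. In the Kennedy pathway the same diacylglycerol receives phosphocholine or phosphoethanolamine: choline kinase alpha (Chka) phosphorylates choline, Pcyt1a makes CDP-choline in the rate-limiting step, and Pcyt2 makes CDP-ethanolamine. REV-ERBα is a nuclear receptor of the circadian clock that represses transcription, and its protein is abundant in mouse liver in the light phase.

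Promoter windows from RefSeq (build GRCm38.p6, the mm10 assembly to which the study aligned its reads) were on hand for 6 of the 9 genes, 11 windows in all, each running from 250 bases before a transcription start to 50 bases after it. Shown here are the windows of Chka, Agpat2 and Lpin2, the genes that differed between genotypes at ZT8, and that of Lpin1, which holds the hexamer bound by REV-ERB and ROR receptors but did not pass the genotype test. Each is written 5′ to 3′ on the strand of its gene, with capitals marking a motif match on either strand.
Chka, chr19:3851523-3851822, plus strand: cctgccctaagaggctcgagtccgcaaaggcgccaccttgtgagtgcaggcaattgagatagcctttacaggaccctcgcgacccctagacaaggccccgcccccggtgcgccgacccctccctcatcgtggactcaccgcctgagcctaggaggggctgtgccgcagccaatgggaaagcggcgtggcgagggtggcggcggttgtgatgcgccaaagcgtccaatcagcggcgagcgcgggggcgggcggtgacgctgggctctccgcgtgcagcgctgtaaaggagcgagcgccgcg
Agpat2, chr2:26604368-26604667, minus strand: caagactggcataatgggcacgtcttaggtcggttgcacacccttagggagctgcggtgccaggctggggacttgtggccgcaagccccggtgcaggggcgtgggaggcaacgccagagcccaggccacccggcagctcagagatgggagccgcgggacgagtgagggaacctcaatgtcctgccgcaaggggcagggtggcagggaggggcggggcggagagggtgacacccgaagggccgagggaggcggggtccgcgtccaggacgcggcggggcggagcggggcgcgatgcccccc
Lpin2, first of 3 windows, chr17:71183282-71183581, plus strand: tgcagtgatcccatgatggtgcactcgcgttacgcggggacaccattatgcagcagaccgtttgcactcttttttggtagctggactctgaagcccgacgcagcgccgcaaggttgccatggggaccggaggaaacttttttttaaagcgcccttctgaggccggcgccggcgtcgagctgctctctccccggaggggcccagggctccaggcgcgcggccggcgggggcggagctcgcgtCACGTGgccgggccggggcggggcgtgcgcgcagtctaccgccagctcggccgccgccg
Lpin1, chr12:16610917-16611216, minus strand: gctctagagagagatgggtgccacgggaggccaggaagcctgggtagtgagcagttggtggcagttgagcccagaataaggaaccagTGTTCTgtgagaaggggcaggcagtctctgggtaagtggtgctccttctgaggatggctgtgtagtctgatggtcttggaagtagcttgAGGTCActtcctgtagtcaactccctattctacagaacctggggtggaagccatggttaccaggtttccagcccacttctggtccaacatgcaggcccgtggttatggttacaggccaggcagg

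The motifs searched, on both strands, were the REV-ERB and ROR half-site AGGTCA, the E-box CACGTG, the D-box TTATGTAA or TTACGTAA, and the glucocorticoid receptor half-site AGAACA. They do not share letters with each other at any match described here. The windows of Chka and Agpat2 held none of them. The first Lpin2 window held an E-box, capitalised above, whose first base lies 9 bases before the start. The Lpin1 window held AGGTCA 74 bases before the start and AGAACA on the opposite strand (TGTTCT as printed) 163 bases before it. Among the windows not shown, AGGTCA occurred once in the second Gpam window and, on the opposite strand, once in the third Pcyt1a window, and AGAACA once in the third Lpin2 window. Of 32851 windows of 300 bases around annotated starts, 16.3% held AGGTCA, 7.15% CACGTG, 1.06% a D-box and 18.97% AGAACA. A match is a description of letters, not a measured binding site, and the absence of a match concerns these windows only.

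Between 17641809 and 26060192 reads were counted on genes per liver, and levels are given as reads per 1000000 gene reads (CPM), with library sizes scaled by the trimmed mean of M-values (TMM). At these depths 3 reads correspond to between 0.115 and 0.170 CPM, far below the lowest level of any of the 9 genes. The adipocyte markers Adipoq, Plin1, Lep, Cfd and Retn summed to at most 0.179 CPM, with Lep at 0 reads in all 12 livers. The hepatocyte markers Alb, Apoa1, Ttr, Cps1 and Hnf4a summed to between 48324 and 70543 CPM in wild type and between 58244 and 84515 CPM in Rev-erbα-/- at ZT8, and to between 91962 and 102265 CPM and between 80942 and 89480 CPM at ZT20. The cholangiocyte markers Krt19, Krt7, Epcam and Sox9 summed to between 4.83 and 7.44 CPM in wild type and between 9.97 and 15.5 CPM in Rev-erbα-/- at ZT8, and to between 11.9 and 12.3 CPM and between 13.5 and 19.2 CPM at ZT20. The 5 macrophage markers summed to between 216 and 318 CPM in wild type at ZT8, and between 181 and 254 CPM in the other groups. The hepatocyte and cholangiocyte sums separated wild type at ZT8 from wild type at ZT20 and the genotypes at ZT20, and the cholangiocyte sum separated the genotypes at ZT8 as well. Alb (median 58635 CPM) made up most of the hepatocyte sum and Sox9 (median 8.84 CPM) most of the cholangiocyte sum. No single marker of these lists passed the genotype test at ZT20. There the lists went in both directions (Alb -0.22 and Apoa1 0.22, Sox9 0.60 and Epcam -0.35 on the log2 scale). The part of these cell types in the results was not tested. In bulk liver, fewer cells of a type and less RNA per cell cannot be told apart. Nr1d1 itself was counted at 129, 96.2 and 75.3 CPM in wild-type livers at ZT8 and at 63.0, 71.9 and 80.6 CPM in Rev-erbα-/- livers at ZT8, and lay between 1.86 and 3.57 CPM in all 6 livers at ZT20. Since reads are summed over the whole symbol, exons left in the knockout cannot be separated from deleted exons, and these values say nothing about the deletion. The study itself reported no Rev-erbα mRNA by quantitative PCR, and no REV-ERBα protein by immunohistochemistry, in Rev-erbα-/- liver. Arntl (Bmal1), which REV-ERBα represses, separated the genotypes at ZT8, with 0.448 to 0.796 CPM in wild type and 22.7 to 25.7 CPM in Rev-erbα-/-.

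Replicates 2 and 3 of the wild-type ZT8 group stood apart from the other livers. Their acute-phase genes (Saa1, Saa2, Orm2, Lcn2 and Hp) summed to 16757 and 21429 CPM, against between 1704 and 2577 CPM in the other 10 livers. Acute-phase genes rise in hepatocytes during inflammation. Calls of the 9 genes that use the wild-type ZT8 group are therefore given with and without these livers, a choice made after seeing the data. Without them that group holds 1 animal, which is assumed to vary like the animals of the other groups. The part of the acute-phase response in the results was not tested.

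**Figure D1:**
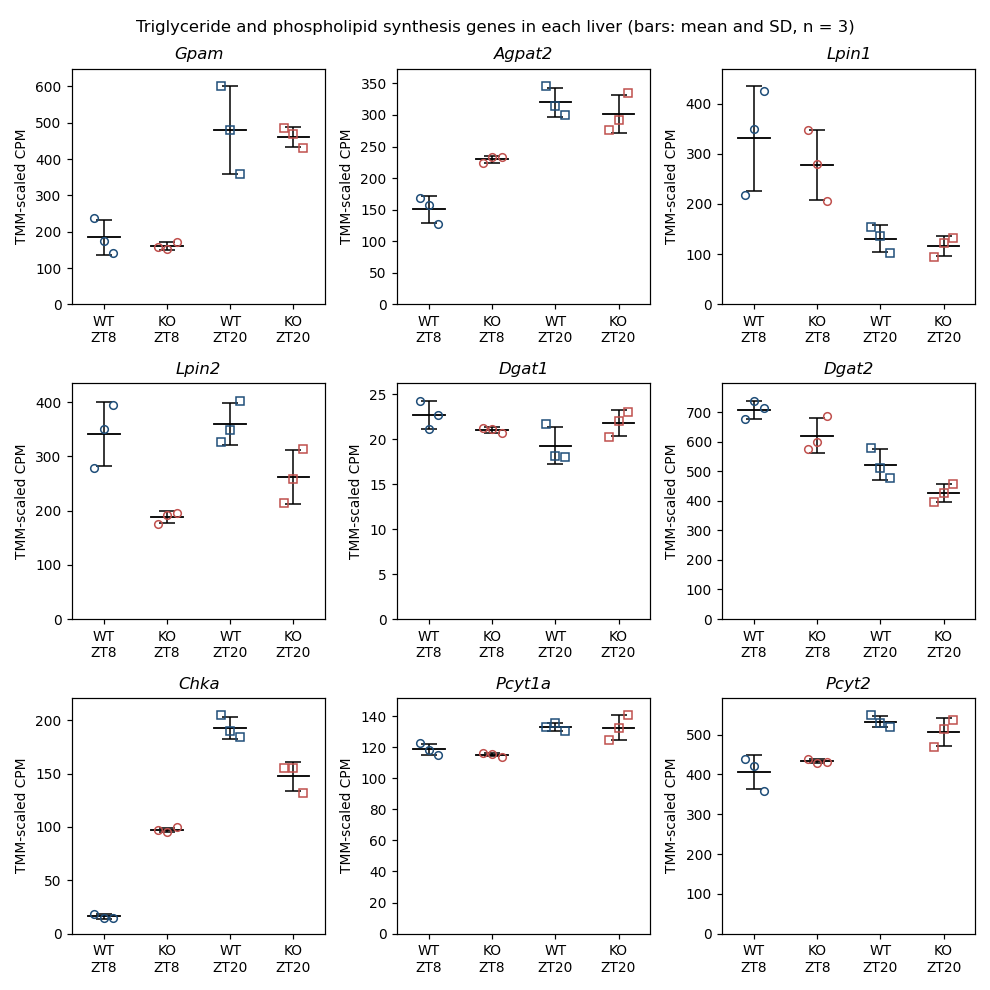
Levels of the 9 genes in each liver as TMM-scaled CPM, with wild type (WT) in blue, Rev-erbα-/- (KO) in red, circles for ZT8, squares for ZT20, and bars for the mean and SD of 3 mice. Chka in wild-type livers at ZT8 lies at 14.4 to 18.8 CPM, below every other liver, while Dgat1 stays between 18.0 and 24.3 CPM in all 12.

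At ZT8, Chka rose 6.03-fold in Rev-erbα-/- livers, Agpat2 rose 1.52-fold and Lpin2 fell to 0.55 times its wild-type level, while the other 6 genes did not pass the test. At ZT20 Chka was the only 1 of the 9 to pass, and there it was lower in Rev-erbα-/- livers. In this comparison and all others a gene passed if its adjusted p in edgeR's quasi-likelihood test, corrected by Benjamini-Hochberg over all 14488 genes, was below 0.05. Thus 3 of 9 genes passed at ZT8 (2 higher, 1 lower), where 8.45% of all tested genes did (4.4% higher, 4.04% lower), and 1 of 9 at ZT20 (lower), where 3.63% of all tested genes did (2.09% higher, 1.54% lower). The median log2 fold change of the 9 was -0.11 at ZT8 and -0.09 at ZT20, beside 0.00 over all tested genes at both times. The genotypes did not overlap for 3 of the 9 genes at each time, against 25.6% of all tested genes at ZT8 and 22.5% at ZT20. Without the wild-type ZT8 livers with high acute-phase genes, the effect at ZT8 was 2.37 for Chka, 0.44 for Agpat2 and -0.57 for Lpin2 on the log2 scale. Fits with other livers or settings were filtered anew, so their number of tested genes can differ from 14488. Of the cell type markers, Hnf4a of hepatocytes (0.35 on the log2 scale, edgeR adjusted p = 0.0366) and Sox9 of cholangiocytes (edgeR adjusted p = 0.00126) also passed for genotype at ZT8, both higher in Rev-erbα-/-. The test of the difference between the genotype effects at ZT8 and at ZT20 (interaction) was passed by Chka and Agpat2, 2 of 9, both with a higher effect at ZT8, against 5.88% of all tested genes (3.05% higher at ZT8, 2.83% lower). Among the cell type markers the interaction was also passed by Hnf4a (0.50 on the log2 scale), Cd68 (-0.88), Marco (-4.43) and Reln (-0.54). Marco was low, between 0.279 and 7.78 CPM. The other macrophage markers, Clec4f (-0.31), Emr1 (-0.80) and Csf1r (-0.47), did not pass. Nor did the other stellate cell markers, which went in both directions (Dcn 0.05, Lrat -0.06 and Col1a1 -0.25).

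In wild-type livers Chka, Gpam, Agpat2 and Pcyt2 rose from ZT8 to ZT20 and Lpin1 and Dgat2 fell, so that 6 of 9 passed where 27.7% of all tested genes did (13.8% higher, 13.9% lower). Without the livers with high acute-phase genes the wild-type change on the log2 scale was 3.35 for Chka, 1.01 for Gpam and 0.92 for Agpat2. It was 0.27 for Pcyt2, -0.74 for Lpin1 and -0.38 for Dgat2. The hepatocyte markers Alb (0.82 on the log2 scale), Cps1 (0.83) and Ttr (0.52) and the cholangiocyte markers Sox9 and Krt19 (1.35) also rose in wild type. The macrophage markers Cd68 (-0.58) and Marco (-2.65) and the stellate cell marker Reln (-0.30) fell. The other stellate cell markers, Lrat (0.21), Dcn (0.14) and Col1a1 (-0.48), went in both directions and did not pass. In Rev-erbα-/- livers Gpam, Chka, Lpin2, Agpat2 and Pcyt1a rose and Lpin1 and Dgat2 fell, so that 7 of 9 passed where 17.5% of all tested genes did (8.79% higher, 8.67% lower). There 3 of 9 passed without Rev-erbα-/- replicate 1 at ZT8, and 4 of 9 without replicate 2 at ZT8 or replicate 3 at ZT20. Over all tested genes, leaving out 1 liver at a time let 1566 to 2847 pass in Rev-erbα-/-. Of the same markers, Krt19 rose (edgeR adjusted p = 0.0398) and Hnf4a fell by 0.45 on the log2 scale in the knockout. The other cholangiocyte markers, Sox9 (0.48), Krt7 (0.53) and Epcam (-0.13), went in both directions and did not pass there. The other hepatocyte markers did not pass there (Alb 0.37, Cps1 0.25, Ttr 0.09 and Apoa1 -0.03). The 9 genes had a median log2 change of 0.16 in wild-type and 0.23 in Rev-erbα-/- livers, beside -0.00021 and 0.01 over all tested genes. ZT8 and ZT20 levels did not overlap for 7 of 9 genes in wild type (42.3% of all tested genes) and for 8 of 9 in Rev-erbα-/- (35% of all tested genes). Dgat1 was the 1 gene that passed in none of the comparisons.

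**Figure D2:**
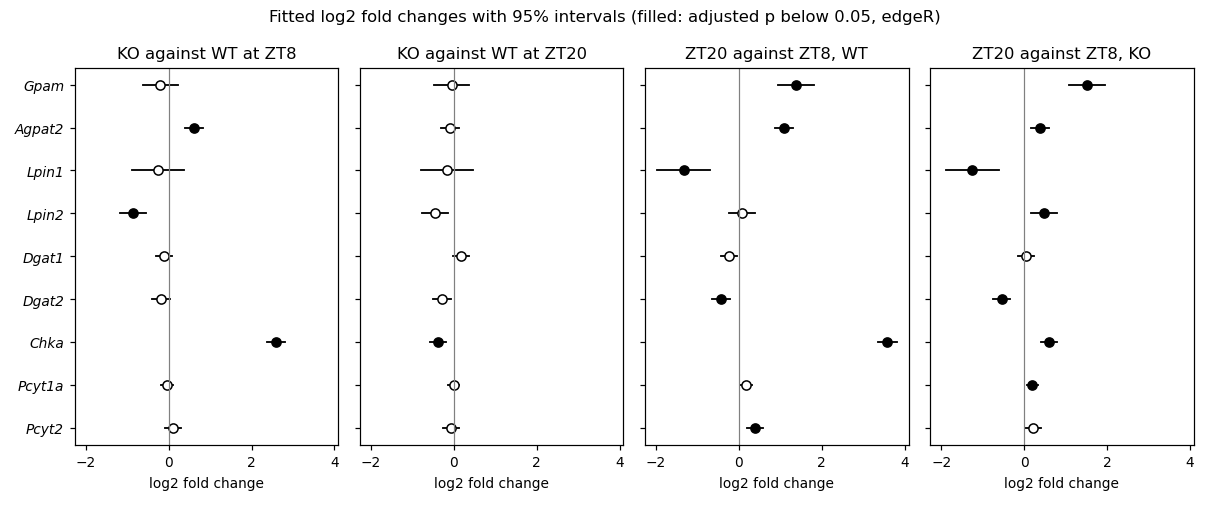
Fitted log2 fold changes of the 9 genes with 95% intervals, for Rev-erbα-/- (KO) against wild type (WT) at ZT8 and ZT20 and for ZT20 against ZT8 in each genotype, filled where the adjusted p of edgeR was below 0.05. Chka stands at 2.59 for genotype at ZT8 and at 3.58 for day to night in wild type, and the other genes lie between -1.34 and 1.52 in every panel.

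Acylation of glycerol-3-phosphate and lysophosphatidate was followed by Gpam and Agpat2. Gpam (ENSMUSG00000024978, chr19:55067268-55127238, minus strand) was counted at 237, 175 and 141 CPM in wild-type livers at ZT8 and at 157, 153 and 173 CPM in Rev-erbα-/- livers at ZT8. At ZT20 it stood at 601, 480 and 360 CPM in wild type and at 485, 470 and 432 CPM in Rev-erbα-/-. The 6 livers at ZT20 were thus all above the 6 at ZT8, and the genotypes overlapped at both times. Between day and night Gpam rose 2.60-fold in wild type (log2 1.38, SE 0.20, edgeR adjusted p = 0.000366) and 2.88-fold in Rev-erbα-/- (log2 1.52, SE 0.20, edgeR adjusted p = 0.000425). Without the 2 livers with high acute-phase genes the wild-type change was 1.01 on the log2 scale (edgeR adjusted p = 0.0135). Its genotype effect was -0.20 at ZT8 (95% interval -0.63 to 0.23) and -0.06 at ZT20 (-0.48 to 0.37), and neither passed the test. Without the 2 livers the effect at ZT8 was -0.57 and the interaction -0.52, and neither passed (edgeR adjusted p = 0.241 and 0.403), whereas without wild-type replicate 1 at ZT8 the effect there was 0.022.

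Agpat2 (ENSMUSG00000026922, chr2:26593057-26604417, minus strand), a gene mutated in congenital generalized lipodystrophy, differed between genotypes at ZT8, and the interaction test was passed as well. At ZT8 it stood at 169, 157 and 127 CPM in wild-type livers and at 224, 233 and 233 CPM in Rev-erbα-/- livers. Every Rev-erbα-/- liver was above every wild-type liver. It rose 1.52-fold in the knockout (log2 0.61, SE 0.10, edgeR adjusted p = 0.00215). At ZT20 its levels were 346, 314 and 300 CPM in wild type and 276, 292 and 335 CPM in Rev-erbα-/-. The genotypes then overlapped, with a log2 fold change of -0.09 (95% interval -0.31 to 0.13). The 2 effects differed by 0.69 on the log2 scale (SE 0.15, edgeR adjusted p for the interaction = 0.0109). Without the livers with high acute-phase genes the fold change at ZT8 was 0.44 on the log2 scale (edgeR adjusted p = 0.0929) and the interaction 0.53 (edgeR adjusted p = 0.0865), so that neither passed. By night Agpat2 had risen 2.12-fold in wild type (edgeR adjusted p = 2.69e-06, or 0.000352 without those livers) and 1.31-fold in Rev-erbα-/- (edgeR adjusted p = 0.0181). The knockout change missed the threshold when Rev-erbα-/- replicate 1 or 2 at ZT8, or replicate 3 at ZT20, was left out, with edgeR adjusted p-values of 0.0532, 0.0540 and 0.0789. Its 4 groups were ordered wild type at ZT20, Rev-erbα-/- at ZT20, Rev-erbα-/- at ZT8 and wild type at ZT8, and only the first and second overlapped. Exons of Agpat2 share 64 bases with Egfl7 on the opposite strand, 3.00% of its exon length. Strand was not used in counting, so reads there count as ambiguous and are left out.

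Of the lipins, Lpin1 fell from ZT8 to ZT20 in both genotypes and did not pass the genotype test, whereas Lpin2 fell in Rev-erbα-/- livers at ZT8. Lpin1 (ENSMUSG00000020593, chr12:16535669-16610966, minus strand), whose protein also acts as a transcriptional coactivator with PGC-1α, was counted at 218, 349 and 424 CPM in wild type and at 347, 280 and 206 CPM in Rev-erbα-/- livers at ZT8. At ZT20 it stood at 155, 135 and 102 CPM in wild type and at 94.4, 123 and 132 CPM in Rev-erbα-/-. All livers at ZT20 were below all livers at ZT8, the genotypes overlapped at both times, and the 3 animals of the wild-type ZT8 group were more spread than those of any other group among the 9 genes, with an SD of 31.6% of the mean. From ZT8 to ZT20 Lpin1 fell by 1.34 on the log2 scale in wild type (SE 0.28, edgeR adjusted p = 0.00727) and by 1.25 in Rev-erbα-/- (SE 0.28, edgeR adjusted p = 0.0154). The 2 wild-type livers with high acute-phase genes were also the highest for Lpin1. Without them the wild-type change was -0.74 and did not pass (edgeR adjusted p = 0.191), and the genotype effect at ZT8 went from -0.25 (95% interval -0.88 to 0.38) to 0.34, neither passing the test. The change in Rev-erbα-/- missed the threshold without replicate 1 at ZT8 (edgeR adjusted p = 0.0518) or without replicate 1 at ZT20 (edgeR adjusted p = 0.0569).

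Lpin2 (ENSMUSG00000024052, chr17:71182560-71249817, plus strand) is the other main lipin of liver. At ZT8 its levels were 278, 350 and 395 CPM in wild type and 175, 192 and 196 CPM in Rev-erbα-/-. Every Rev-erbα-/- liver was below every wild-type liver. Lpin2 fell by 0.86 on the log2 scale in the knockout (SE 0.14, edgeR adjusted p = 0.00218). The 2 wild-type livers with high acute-phase genes were the 2 highest here too, and without them the difference was -0.57 (edgeR adjusted p = 0.119), no longer past the threshold. At ZT20 the levels were 327, 349 and 403 CPM in wild type and 215, 258 and 313 CPM in Rev-erbα-/-. The genotypes again did not overlap, with a log2 fold change of -0.46 (95% interval -0.76 to -0.15) that missed the threshold over all genes (edgeR adjusted p = 0.114) and passed it with DESeq2 (adjusted p = 0.0413) and without Rev-erbα-/- replicate 3 at ZT20 (edgeR adjusted p = 0.0306). The effects at ZT8 and ZT20 were not shown to differ (interaction -0.40, 95% interval -0.84 to 0.03, edgeR adjusted p = 0.292). Lpin2 rose 1.39-fold from ZT8 to ZT20 in Rev-erbα-/- (log2 0.48, SE 0.14, edgeR adjusted p = 0.0332), a call that was lost in 5 of the 20 alternative fits, each of them leaving out 1 Rev-erbα-/- liver. The wild-type change was 0.08 (95% interval -0.23 to 0.38).

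Of the enzymes that finish triglyceride, neither Dgat1 nor Dgat2 passed the genotype test. Dgat1 (ENSMUSG00000022555, chr15:76502015-76511953, minus strand), the acyltransferase that prefers exogenous fatty acids, was between 21.2 and 24.3 CPM in wild type and between 20.7 and 21.2 CPM in Rev-erbα-/- at ZT8, and between 18.0 and 21.6 CPM and between 20.3 and 23.0 CPM at ZT20. The 4 groups overlapped with their neighbours in order throughout. Its log2 fold changes ran from -0.24 for day to night in wild type (95% interval -0.43 to -0.05, edgeR adjusted p = 0.0595) to 0.18 for genotype at ZT20 (-0.01 to 0.37). Without the livers with high acute-phase genes Dgat1 stood at -0.34 for day to night in wild type and at -0.21 for genotype at ZT8, and neither passed.

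Dgat2 (ENSMUSG00000030747, chr7:99153658-99182719, minus strand), the acyltransferase tied to newly made fatty acids, had the highest level per exon length of the 9 in every group but Rev-erbα-/- at ZT20, where Agpat2 was slightly above it. It stood at 675, 736 and 713 CPM in wild type and at 577, 598 and 687 CPM in Rev-erbα-/- at ZT8, and at 579, 511 and 475 CPM and at 395, 426 and 455 CPM at ZT20. Night levels were below day levels in each genotype, and the genotypes overlapped at ZT8 but not at ZT20. From ZT8 to ZT20 Dgat2 fell by 0.44 on the log2 scale in wild type (SE 0.10, edgeR adjusted p = 0.00422) and by 0.54 in Rev-erbα-/- (SE 0.10, edgeR adjusted p = 0.00187). Without the livers with high acute-phase genes the wild-type change was -0.38 and did not pass (edgeR adjusted p = 0.0974). The genotype effect was -0.19 at ZT8 (95% interval -0.40 to 0.02) and -0.29 at ZT20 (-0.51 to -0.08, edgeR adjusted p = 0.150), and it did not pass at either time. At ZT8 it was -0.13 without those livers.

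The Kennedy pathway held the largest difference, in Chka (ENSMUSG00000024843, chr19:3851773-3894369, plus strand), the kinase that commits choline to phosphatidylcholine. At ZT8 Chka was counted at 18.8, 15.05 and 14.4 CPM in wild-type livers, from 284 to 472 reads. In Rev-erbα-/- livers it stood at 97.1, 95.3 and 99.6 CPM, all far above wild type and within a narrow range. It rose 6.03-fold (95% interval 5.19 to 7.00, log2 2.59, SE 0.10, edgeR adjusted p = 3.81e-10), which placed it at rank 3 by p and rank 47 by size of change among the 14488 genes. At ZT20 Chka stood at 205, 190 and 184 CPM in wild type and at 155, 155 and 132 CPM in Rev-erbα-/-. There the Rev-erbα-/- livers were all below the wild-type livers, and Chka fell by 0.39 on the log2 scale (SE 0.09, edgeR adjusted p = 0.0291). This night difference was close to the threshold: leaving out wild-type replicate 1, 2 or 3 at ZT20, Rev-erbα-/- replicate 2 or 3 at ZT20, or Rev-erbα-/- replicate 2 at ZT8 gave edgeR adjusted p-values of 0.117, 0.102, 0.0521, 0.0658, 0.107 and 0.0501.

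The genotype effects on Chka at ZT8 and ZT20 differed by 2.98 on the log2 scale (SE 0.14, edgeR adjusted p for the interaction = 2.80e-09). From ZT8 to ZT20 Chka rose 11.9-fold in wild type (log2 3.58, SE 0.10, edgeR adjusted p = 4.87e-12) and 1.52-fold in Rev-erbα-/- (log2 0.60, SE 0.09, edgeR adjusted p = 0.000486). None of the 4 groups overlapped, in the order wild type at ZT20, Rev-erbα-/- at ZT20, Rev-erbα-/- at ZT8 and wild type at ZT8. Without the wild-type livers with high acute-phase genes the values were 2.37 for genotype at ZT8, 2.75 for the interaction and 3.35 for the wild-type change, all past the threshold. Chka exons share 74 bases with Gm16066 and 165 bases with AC133523.2, both antisense, together a small part of its 12.0 kb.

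Pcyt1a and Pcyt2, the enzymes of CDP formation that follow the kinases, did not pass the genotype test at either time. Pcyt1a (ENSMUSG00000005615, chr16:32430921-32475070, plus strand) was counted at 122, 118 and 115 CPM in wild type and at 116, 116 and 114 CPM in Rev-erbα-/- at ZT8, and at 133, 135 and 130 CPM and at 124, 132 and 140 CPM at ZT20. Night levels were above day levels in each genotype, and the genotypes overlapped at both times, with log2 fold changes of -0.04 at ZT8 (95% interval -0.18 to 0.10) and -0.0046 at ZT20 (-0.14 to 0.13). Towards the night Pcyt1a rose 1.15-fold in Rev-erbα-/- (log2 0.20, SE 0.06, edgeR adjusted p = 0.0438), a call kept in 7 of 20 alternative fits. In wild type the change was 0.16 (95% interval 0.03 to 0.30, edgeR adjusted p = 0.0719). Exons of Pcyt1a share 567 bases, 7.65% of their length, with Slc51a on the opposite strand. Reads there count as ambiguous in union mode without strand and are left out.

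Pcyt2 (ENSMUSG00000025137, chr11:120610087-120617936, minus strand), the rate-limiting enzyme for phosphatidylethanolamine, stood at 439, 421 and 357 CPM in wild type and at 439, 428 and 432 CPM in Rev-erbα-/- at ZT8. At ZT20 it stood at 549, 530 and 520 CPM in wild type and at 468, 515 and 536 CPM in Rev-erbα-/-. Night levels were again above day levels in each genotype, and the genotypes overlapped at both times. Pcyt2 rose 1.31-fold from ZT8 to ZT20 in wild type (log2 0.39, SE 0.09, edgeR adjusted p = 0.00451), but its change was 0.27 without the livers with high acute-phase genes, of which replicate 3 was the lowest, and did not pass (edgeR adjusted p = 0.140). In Rev-erbα-/- the change was 0.23 (95% interval 0.03 to 0.42, edgeR adjusted p = 0.103). The genotype effect was 0.09 at ZT8 (95% interval -0.10 to 0.29) and -0.07 at ZT20 (-0.27 to 0.12).

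**Figure D3:**
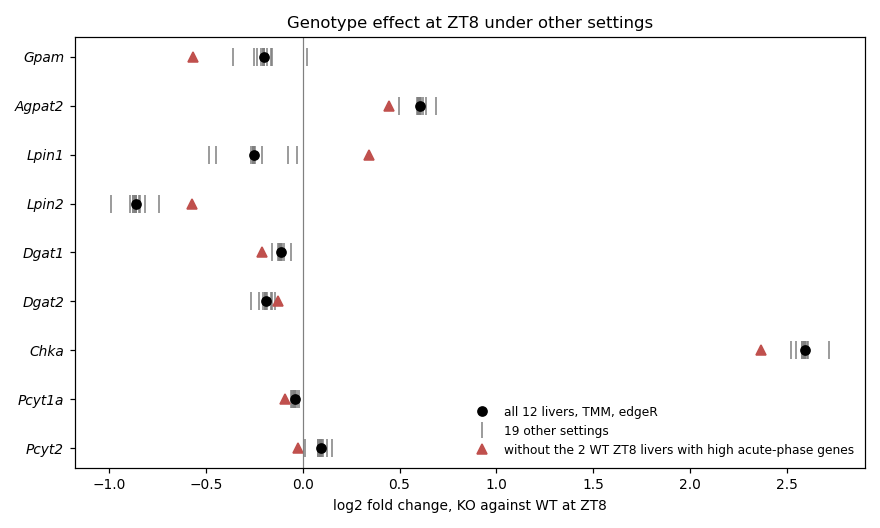
Log2 fold change of each of the 9 genes in Rev-erbα-/- against wild type at ZT8, as reported (black circle), under 19 other settings (grey ticks) and without the 2 wild-type livers with high acute-phase genes (red triangle). Chka stays between 2.37 and 2.72, and Agpat2 moves to 0.44 and Lpin2 to -0.57 at the red triangle. Lpin1 and Pcyt2 cross 0 at the red triangle, and Gpam crosses it (0.022) without wild-type ZT8 replicate 1.

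Other enzymes of the same pathways were read beside these 9. Of 38 further genes for acylation and phosphatidate hydrolysis, the Kennedy pathway and the CDP-diacylglycerol branch, 35 were tested, and Mogat1, Mogat2 and Pcyt1b were too low, with at most 2.40, 0.508 and 0.400 CPM. At ZT8, 6 of 35 passed for genotype (4 higher, 2 lower), a share of 17.1% beside 8.45% of all tested genes (4.4% higher, 4.04% lower), with a median log2 fold change of -0.04. Ept1, an ethanolaminephosphotransferase, rose by 0.56 on the log2 scale (edgeR adjusted p = 0.000122), and Cept1, the choline and ethanolamine phosphotransferase that finishes both branches, by 0.45 (edgeR adjusted p = 0.00260). Gyk, glycerol kinase, rose by 0.45 (edgeR adjusted p = 0.00370), and the phosphatidate phosphatase gene Ppap2a by 0.37 (edgeR adjusted p = 0.0396). Gpd1l, a glycerol-3-phosphate dehydrogenase, fell by 0.45 (edgeR adjusted p = 0.000870), and Cds2, which makes CDP-diacylglycerol, by 0.27 (edgeR adjusted p = 0.0392). Of 20 alternative fits, 10 kept the call of Cds2 and 11 that of Ppap2a. Without the wild-type livers with high acute-phase genes the effect was 0.46 for Ept1, 0.41 for Cept1, 0.58 for Gyk and 0.31 for Ppap2a. It was -0.41 for Gpd1l, -0.28 for Cds2 and -0.45 for Etnk2.

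At ZT20, 2 of 35 passed, both higher in Rev-erbα-/-, beside 3.63% of all tested genes (2.09% higher). Etnk2, an ethanolamine kinase of liver, stood at 139, 134 and 135 CPM in wild type and at 277, 274 and 301 CPM in Rev-erbα-/-. It rose by 1.06 on the log2 scale (SE 0.11, edgeR adjusted p = 5.18e-05) with no overlap. Gpd1, the cytosolic dehydrogenase that makes glycerol-3-phosphate, stood at 270, 239 and 226 CPM in wild type and at 379, 387 and 402 CPM in Rev-erbα-/-, and rose by 0.67 (SE 0.09, edgeR adjusted p = 0.000713). At ZT8 their genotype effects were -0.19 for Etnk2 and 0.25 for Gpd1, and neither passed. The interaction was passed by 5 of 35 genes, beside 5.88% of all tested genes: Ept1 (0.58), Cept1 (0.53) and Gyk (0.63), whose effect was higher at ZT8, and Etnk2 (-1.25) and Gpd1l (-0.53), whose effect was lower there.

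From ZT8 to ZT20, 19 of 35 of these genes passed in wild-type livers (10 higher, 9 lower), beside 27.7% of all tested genes, and 3 of 35 in Rev-erbα-/- livers (all higher), beside 17.5%. Without the wild-type livers with high acute-phase genes the wild-type change was 0.66 for Ept1, -1.54 for Etnk2, -0.50 for Gpd1l and 0.47 for Cept1. The 5 with the smallest adjusted p in wild type were the choline transporter Slc44a1 (1.32 on the log2 scale), Ept1 (0.76), Etnk2 (-1.27), Gpd1l (-0.54) and Cept1 (0.51). In Rev-erbα-/- livers Slc44a1 rose by 0.94 (edgeR adjusted p = 2.22e-05), the lysophosphatidylcholine acyltransferase Lpcat3 by 0.50 (edgeR adjusted p = 0.000461) and the ethanolamine kinase Etnk1 by 0.45 (edgeR adjusted p = 0.00413), while Cds2 (0.21, edgeR adjusted p = 0.0763) and Ept1 (0.18, edgeR adjusted p = 0.0792) came next and did not pass. In Rev-erbα-/- livers the change was -0.03 for Etnk2, -0.01 for Gpd1l and -0.02 for Cept1. By subgroup, 9 of 15 genes for acylation and phosphatidate hydrolysis passed in wild type and 0 in the knockout, 7 and 3 of 10 for Kennedy pathway partners, and 3 and 0 of 10 for the CDP-diacylglycerol branch, to be read beside the same 27.7% and 17.5%. At an unadjusted p below 0.05 in edgeR the subgroups with 0 in Rev-erbα-/- each had 3, beside 4415 of all 14488 tested genes. The difference between the genotypes in these counts was not tested.

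**Figure D4:**
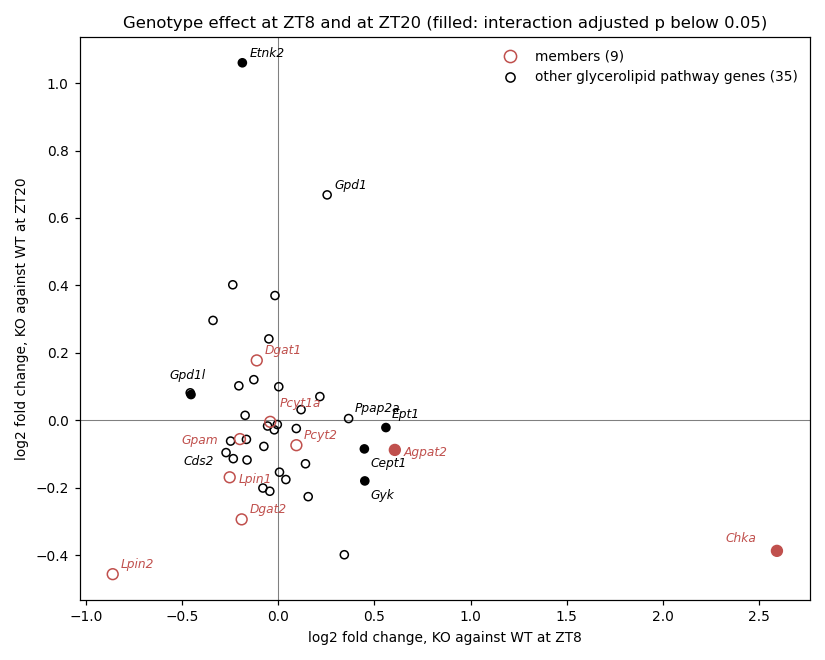
Log2 fold change of Rev-erbα-/- against wild type at ZT8 (x axis) and at ZT20 (y axis) for the 9 genes (red) and 35 other glycerolipid genes (black), filled where the interaction had an edgeR adjusted p below 0.05. Chka lies far to the right at 2.59 and -0.39, Etnk2 at the top at -0.19 and 1.06, and Lpin2 at the lower left at -0.86 and -0.46.

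Levels can be set side by side only per exon length (CPM per kb of summed exons). All annotated exons of a gene were summed, 12.0 kb for Chka and 3.06 kb for Chkb. Which transcripts the liver uses was not determined, so the order of genes and the size of shares depend on these lengths. In wild type at ZT8 the mean was 230 CPM per kb for Dgat2, 93.3 for Pcyt2, 70.9 for Agpat2, 34.2 for Lpin1, 27.9 for Lpin2, 27.7 for Gpam, 15.99 for Pcyt1a, 7.42 for Dgat1 and 1.34 for Chka. The order differed between groups: Chka was above Dgat1 in the other 3 groups, with 8.09, 16.0 and 12.3 CPM per kb, Agpat2 was above Pcyt2 in the same 3, and in Rev-erbα-/- at ZT20 Agpat2 (141 CPM per kb) was above Dgat2 (138 CPM per kb), whose ranges overlapped. Gpam and Lpin2 were above Lpin1 in both groups at ZT20 and below it in both at ZT8. The share of a gene within its enzyme family was then followed across groups. Chka made up 11.2% ± 0.816 (SD, n = 3) of the summed level of Chka and Chkb, its paralog, in wild type at ZT8, against 43.3% ± 1.39 in Rev-erbα-/- at ZT8, 56.4% ± 3.58 in wild type at ZT20 and 52.3% ± 3.78 in Rev-erbα-/- at ZT20. The wild-type group at ZT8 overlapped with none of the others, and Chkb itself was between 29.8 and 41.3 CPM in all 12 livers.

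Lpin1 made up 52.3% ± 4.56 of the 3 lipins in wild type at ZT8, 61.6% ± 7.57 in Rev-erbα-/- at ZT8, 30.3% ± 6.43 in wild type at ZT20 and 34.1% ± 1.26 in Rev-erbα-/- at ZT20, with the genotypes overlapping at both times. At ZT8 Agpat2 made up 65.2% ± 2.60 of Agpat1 to Agpat5 in wild-type livers, against 74.9% ± 1.12 in the knockout without overlap, and it stood at 80.6% ± 1.36 and 79.8% ± 2.01 at ZT20. Gpam made up 46.4% ± 8.83 and 44.5% ± 1.96 of the glycerol-3-phosphate acyltransferases at ZT8, and 66.7% ± 6.69 and 68.4% ± 2.38 at ZT20, in wild type and Rev-erbα-/-. Dgat2 stayed between 95.04% and 97.2% of Dgat1 and Dgat2, and Pcyt2 between 84.1% and 87.6% of Pcyt1a and Pcyt2, in every liver. Pcyt1a and Pcyt2 serve the choline and ethanolamine branches, so their share compares branches and not forms of the same enzyme. With 3 livers against 3 the exact two-sided permutation test cannot go below p = 0.1, and over the 24 comparisons of shares the smallest Benjamini-Hochberg adjusted value was 0.16, so none of these differences in share could pass a threshold of 0.05.

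**Figure D5:**
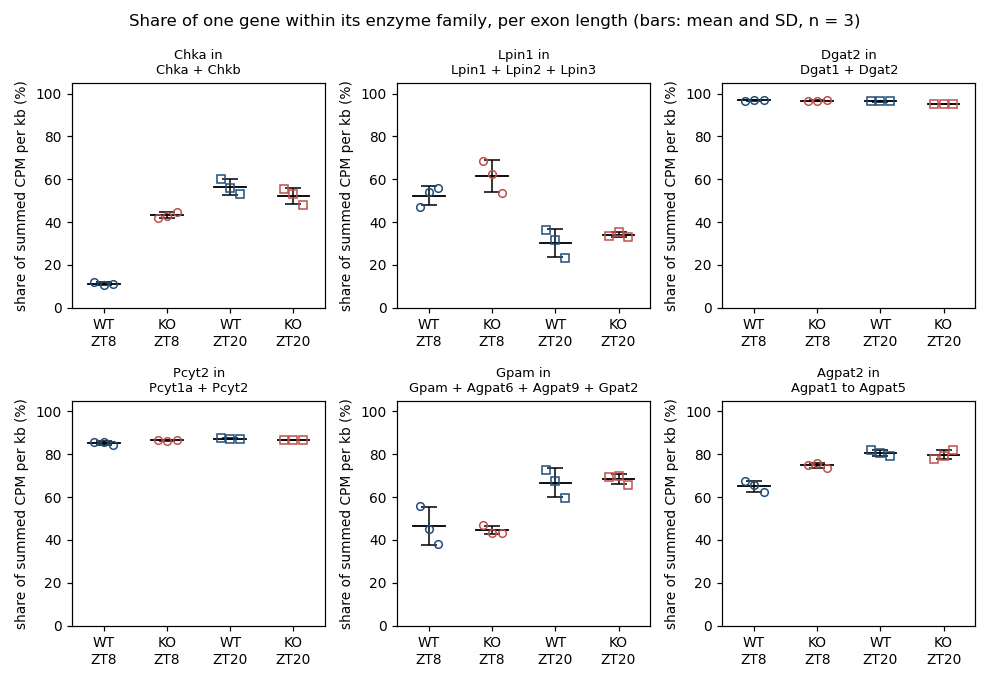
Share of one gene in the summed CPM per kb of its enzyme family in each liver, with wild type (WT) in blue, Rev-erbα-/- (KO) in red, circles for ZT8, squares for ZT20, and bars for the mean and SD of 3 mice. The share of Chka in wild type at ZT8, 10.5% to 12.1%, is the lowest of its panel, and Dgat2 makes up at least 95.04% in all livers. The Pcyt2 panel sets Pcyt2 beside Pcyt1a, which serves the choline branch and is not a form of the same enzyme.

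For each of the 8 genes that passed in at least 1 comparison, the genes whose log2 CPM followed it most closely over the 12 livers were named by Pearson's r, given as a description since all points share the 4 groups. Gpam was closest to Acly, ATP citrate lyase of fatty acid synthesis (r = 0.994), then to Pxdc1 (0.983) and Pcyox1 (0.982). Chka was closest to Lonrf3 (0.992), Ahctf1 (0.992) and Nedd4l (0.991), whose log2 fold changes at ZT8 were 1.94, 0.92 and 1.16. Agpat2 was closest to Pnkd (0.988), Psen2 (0.988) and Fpgs (0.987), with 0.97, 0.63 and 0.68 at ZT8. Lpin2 was closest to Gigyf1 (0.963), Zc3hav1l (0.935) and Gltscr1l (0.929). Lpin1 was closest to Arhgef26 (0.972) and Trak2 (0.966), and Dgat2 to Dedd2 (0.980), Slc35a4 (0.974) and Oraov1 (0.961). Pcyt1a was closest to Prkaca (0.980), Tlcd1 (0.974) and Acot2 (0.974), and Pcyt2 to Aqp8 (0.980), H2-Q10 (0.977) and Galt (0.974).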

How the data were processed

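Liver RNA of 12 mice was analysed. Poly(A) libraries were read on an Illumina HiSeq machine, and the authors used TopHat with the mm10 genome. Reads with a unique position were then assigned to gene symbols by HTSeq-count (union mode, strand not used). They deposited raw counts per gene, with no normalization, filter or pooling, and tested them with DESeq2 (version 1.6.3, per the submitters' processing notes). Reads ambiguous between genes (3.08% to 3.62% of uniquely placed reads) or on no gene (8.50% to 9.95%), listed as summary lines, were left out. So were alignments without a unique position, at 1.76 to 3.28 per gene read in ZT8 livers and 1.24 to 1.67 in ZT20 livers. Wild-type ZT8 replicates 2 and 3 had the highest values (2.89 and 3.28). The part of this difference between the times in the day to night results was not tested.

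Here, low counts were filtered with filterByExpr, libraries were scaled with TMM, and edgeR 4.0.16 (R 4.3.3, robust quasi-likelihood test) was fitted with 4 group means over 12 samples. P-values were adjusted by Benjamini-Hochberg within each comparison, with a threshold of 0.05. Groups and replicate numbers come from the sample labels. Replicates are separate livers, which differed by more than sampling noise. Coordinates, exon overlaps and exon lengths come from GENCODE (GRCm38), promoter windows from RefSeq. On simulated data for genotype at ZT8 (14488 genes, 200 changed 3-fold), edgeR recovered 98% with 8 false calls. Smaller changes and outlying livers were not simulated, so these figures do not cover them.

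The 9 genes and the other lists were chosen with earlier results of these data known. All 9 genes are named. Of the other pathway genes, those past the threshold in a genotype comparison or the interaction are named, and the 5 with the smallest adjusted p in each day to night comparison. Similar genes are the 3 with the highest r of log2 CPM (prior count 2), of which 1 is not reported here. Alternatives were DESeq2 1.42.0, RLE and upper-quartile scaling, no filter, a filter of 10 counts in every sample, a fit on just the 6 livers of a comparison, a block for replicate number, and leaving out each liver, plus 1 chosen after seeing the data (without 2 wild-type ZT8 livers).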

Additional observations from a re-analysis of the deposited data

Results flagged for a closer look

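Of the genes named here, 7 had a genotype effect that differed between ZT8 and ZT20 by the interaction test in edgeR. For Chka the effect at ZT8 exceeded that at ZT20 by 2.98 on the log2 scale (SE 0.14, adjusted p = 2.80e-09), with the knockout higher in 3 of 3 livers at ZT8 and lower in 3 of 3 at ZT20. For Agpat2 it exceeded it by 0.69 (SE 0.15, adjusted p = 0.0109). Among the other pathway genes the difference was 0.63 for Gyk (SE 0.12, adjusted p = 0.00478), 0.58 for Ept1 (SE 0.10, adjusted p = 0.00179) and 0.53 for Cept1 (SE 0.11, adjusted p = 0.00999). It was -0.53 for Gpd1l (SE 0.10, adjusted p = 0.00455) and -1.25 for Etnk2 (SE 0.16, adjusted p = 0.000219). Without the wild-type ZT8 livers with high acute-phase genes, Agpat2 (adjusted p = 0.0865) and Cept1 (adjusted p = 0.0957) no longer passed, and the other 5 did. No test for a single outlying value was applied to the groups of 3 livers.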

How the results depend on the processing

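Of 891 values of the 9 genes under other settings, 832 kept their direction and their side of the threshold, 35 lost it, 4 gained it and 20 changed sign. None of those that changed sign was past the threshold as reported. The cause of these changes was not tested, except that a fit on fewer livers has fewer degrees of freedom by construction.

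Replicate numbers did not pair the livers (mean correlation of deviations -0.0144 for 18 same-numbered pairs, 0.00712 for 36 others). For genotype at ZT20 Lpin2 passed beside Chka with the replicate block (edgeR adjusted p = 0.00977) and with DESeq2 (DESeq2 adjusted p = 0.0413). With the block Pcyt1a no longer passed for day to night in Rev-erbα-/- (edgeR adjusted p = 0.0636), and the other calls of the 9 genes stood. With only the 6 samples compared, 769 of all genes passed for genotype at ZT8. With upper-quartile scaling Cds2 and Ept1 also passed for day to night in Rev-erbα-/- (edgeR adjusted p = 0.0465 and 0.0460). The interaction was not run on 6 samples, since it needs all 12.

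Without the 2 wild-type ZT8 livers, 1 of the 9 genes, 3 pathway genes and 346 of all genes passed for genotype at ZT8. For the interaction 1 of the 9 and 493 of all genes passed, and for day to night in wild type 3 of the 9, 12 pathway genes and 1795 of all genes. Lpin1 then changed sign for genotype at ZT8 (0.34) and the interaction (0.51), as did Pcyt2 at ZT8 (-0.022).

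Leaving out 1 liver at a time, 542 to 1811 of all genes passed at ZT8, 239 to 656 at ZT20, 493 to 1260 for the interaction and 1566 to 2847 for day to night in Rev-erbα-/-. At ZT8 the count fell to 542, 749 and 607 without wild-type ZT8 replicate 2 or 3 or Rev-erbα-/- ZT8 replicate 2, and at ZT20 to 322, 239 and 262 without wild-type ZT20 replicate 1 or 2 or Rev-erbα-/- ZT20 replicate 2. For the interaction it fell to 509, 548, 493 and 516 without replicate 2 of wild type or Rev-erbα-/- at ZT8 or at ZT20, and for day to night in Rev-erbα-/- to 1663 and 1566 without its replicate 2 at ZT8 or ZT20. Of the 9 genes, 0 to 1 passed at ZT20 (0 without any of the livers named for Chka other than Rev-erbα-/- ZT20 replicate 3, where Lpin2 passed instead) and 3 to 7 for day to night in Rev-erbα-/- (3 without its ZT8 replicate 1, 4 without its ZT8 replicate 2 or ZT20 replicate 3). Of the pathway genes, 2 to 4 passed at ZT20 (4 without wild-type ZT8 replicate 1) and 3 to 6 for day to night in Rev-erbα-/- (6 and 5 without its ZT8 replicates 1 and 3, 5 without wild-type ZT20 replicate 3). Cds2 at ZT8 kept its call in 10 of 20 settings and Ppap2a in 11.

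Values that changed sign in such fits ranged, for genotype, from -0.36 to 0.022 for Gpam at ZT8, and at ZT20 from -0.22 to 0.14 for Gpam, -0.049 to 0.038 for Pcyt1a, -0.17 to 0.0064 for Cds2 and -0.058 to 0.063 for Ppap2a. For the interaction they ranged from -0.34 to 0.072 for Gpam, -0.32 to 0.14 for Lpin1 and -0.078 to 0.0094 for Pcyt1a. For day to night they ranged from -0.061 to 0.20 for Lpin2 and -0.077 to 0.10 for Cds2 in wild type, and from -0.10 to 0.079 for Cept1, -0.070 to 0.00042 for Etnk2 and -0.044 to 0.023 for Gpd1l in Rev-erbα-/-. With upper-quartile scaling Pcyt1a at ZT20 (0.010) and, for day to night in Rev-erbα-/-, Cept1 (0.0044), Etnk2 (0.0018) and Gpd1l (0.016) changed sign, and without a filter Pcyt1a at ZT20 did (0.00095).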
